A study of Homo sapiens with 6 samples.

Results

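The genes described here are the neighbours of ERBB2 on the long arm of human chromosome 17. They are the protein-coding genes that lie wholly between positions 38687914 and 40730426 (GRCh38, GENCODE release 29), which is 1 Mb to either side of ERBB2 (39687914 to 39730426), without ERBB2 itself. There were 53 such genes among the 19951 protein-coding genes of the files, and 37 of them had at least 1 FPKM (reads scaled to exon length and library size) in 2 or more libraries and were tested. Every library is labelled as the gastric carcinoma cell line NCI-N87. Total RNA was sequenced from 2 libraries of KRT17 knockout group KO1, 2 of KRT17 knockout group KO2 and 2 of wild-type cells (WT). The labels do not say whether KO1 and KO2 stand for guides, clones or pools, and name no control agent in WT. Nor is it stated that replicates were grown separately, so each p-value rests on library-to-library spread that could be technical.

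ERBB2 encodes the receptor tyrosine kinase HER2, and NCI-N87 is known for extra copies of this gene. In tumours with such an amplification the copied stretch of chromosome usually carries neighbours as well, among them GRB7, STARD3, MIEN1 and PGAP3, and their transcripts are often abundant together with that of ERBB2. Genes farther out, such as TOP2A, are copied in some of these tumours and not in others. The files hold RNA levels only.

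Libraries held 17599759 to 22852340 recovered reads, which made 1 read in a gene of 1 kb worth 0.0429 to 0.0544 FPKM. KRT17, the targeted gene, was at 2.29 and 2.40 FPKM in KO1 and 11.3 and 10.4 FPKM in KO2, against 739 and 753 FPKM in WT. ERBB2 was at 5.57 and 6.07 FPKM in KO1 and 5.27 and 5.30 FPKM in KO2, against 1355 and 1420 FPKM in WT. The knockout libraries stood apart from WT far beyond this region. The chi-square of read numbers per degree of freedom was 309 to 357 between knockout and WT libraries, 24.5 to 25.3 between KO1 and KO2, and 1.80 to 2.46 between replicates. Of 9 epithelial markers, 9 were lower in the knockout average, where 40.1% of all tested genes were called lower. Among the 9, ESRP1, CDH1 and KRT19 were under 1 FPKM in all knockout libraries. They qualified for testing through WT alone and had to differ. The summed level of the 9 was 427 to 438 FPKM in KO1 and 364 to 366 FPKM in KO2, against 3878 to 3981 FPKM in WT. ESRP1 had 0 reads in the knockout libraries. Of 8 fibroblast markers, 4 were tested and 4 were higher, where 40.5% of all tested genes were called higher. The sums of the 8 were 44.5 to 45.0 FPKM in KO1 and 55.3 to 57.8 FPKM in KO2, against 0.760 to 0.907 FPKM in WT. Each was thus under 1 FPKM in WT, so the 4 qualified for testing through the knockout libraries alone and had to differ. PDGFRA had 0 reads in all libraries, and COL1A2 and LUM had 0 in WT. Leukocyte markers summed to 1.69 to 1.72 FPKM in KO1 and 3.12 to 3.42 FPKM in KO2, against 1.48 to 1.49 FPKM in WT, with 2 of 7 tested and both higher, and CD68 had 0 reads in the knockout libraries. The sums of the 5 endothelial markers were at most 0.746 FPKM, 0 of them were tested, and KDR and TEK had 0 reads in the knockout libraries. ERBB2 and epithelial transcripts, for which NCI-N87 is known, were thus high in the WT libraries. In those labelled KO1 and KO2 they were much lower, though of the epithelial markers only ESRP1 was without reads. Whether the knockout libraries come from the same line as WT was not tested, and every difference from WT below rests on the labels in this respect. The part of the marker genes in the levels below was not tested either.

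Transcripts of the ERBB2 neighbours were lower in both knockout groups almost without exception. Of the 37 tested members, 36 fell and 1 rose in the average of KO1 and KO2 against WT (limma, Benjamini-Hochberg adjusted p below 0.05). Over all 16046 tested genes, 40.1% were called lower and 40.5% higher, 80.6% in all. The counts were 36 and 1 in KO1 (background 38.6% lower, 39.3% higher, 77.8% in all) and 36 and 1 in KO2 (39.8%, 39.1% and 78.9%). The gene that rose was IGFBP4 each time. In 36 members all 4 knockout values lay below both WT values. Over all 16046 tested genes this held for 6419, and in 6396 all 4 lay above both. Knockout and WT values that do not overlap in a single gene were therefore common in these data. The window was chosen because ERBB2 had been seen to fall, and 6 of the 37 (LASP1NB, PPP1R1B, TCAP, PNMT, GSDMB and GSDMA) passed the filter through WT alone and had to differ. These counts therefore describe the region and are no independent support. Without the 6, which were set aside after seeing the data, 30 of 31 fell. In these bulk samples, fewer cells that carry a transcript and less of it per cell cannot be told apart.

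The median log2 fold change over the tested members was -2.77, with a range of -6.22 to 0.66 on the log2(FPKM + 1) scale. Over 11881 tested protein-coding genes the median was -0.05. The median level of the tested members was 6.80 FPKM in KO1 and 6.37 FPKM in KO2, against 53.4 FPKM in WT. Over all tested protein-coding genes it was 6.84 FPKM in KO1, 6.63 FPKM in KO2 and 6.91 FPKM in WT. The median member was therefore near the general median in the knockout groups and well above it in WT. All 53 members together took 0.294% and 0.296% of reads in KO1 and 0.300% and 0.296% in KO2, against 2.59% and 2.61% in WT. The widest 95% Wilson interval among these was 2.60% to 2.62% in WT replicate 2, and it covers counting error only.

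**Figure D1:**
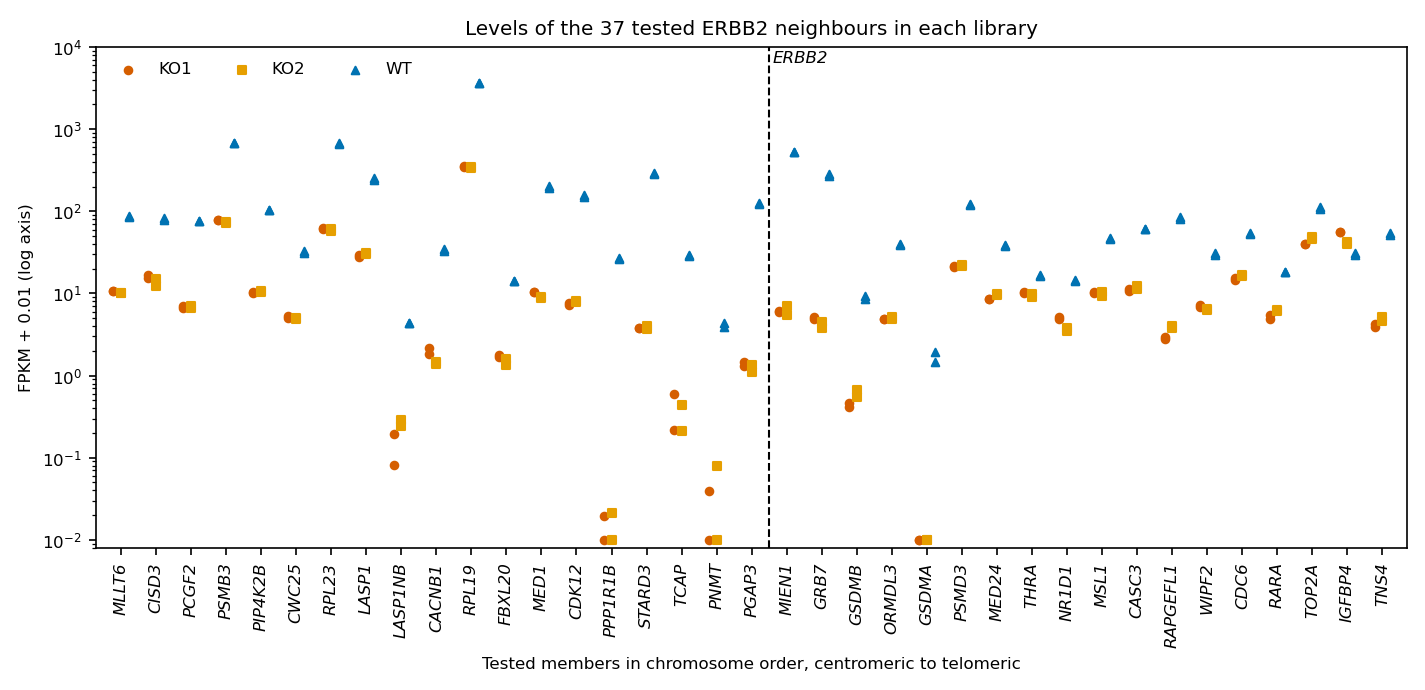
FPKM plus 0.01 on a log axis for each library of the 37 tested members, in chromosome order, with KO1 (circles), KO2 (squares) and WT (triangles); the dashed line marks ERBB2. In 36 members every knockout point lies below both WT points, and IGFBP4 is the exception. Of all 16046 tested genes, 6419 lie below in this way and 6396 above.

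The deepest falls belonged to genes that touch or flank ERBB2. MIEN1, which encodes a membrane-anchored protein linked to cell migration and overlaps the end of ERBB2 on the other strand, was at 6.10 and 5.87 FPKM in KO1 and 7.01 and 5.40 FPKM in KO2, against 524 and 525 FPKM in WT. All 4 knockout libraries were near 1% of WT, an 86.1-fold fall (-6.22 ± 0.09 log2 ± SE, limma adjusted p = 4.43e-07). GRB7, an adaptor that binds activated HER2, was at 5.16 and 4.93 FPKM in KO1 and 4.52 and 3.74 FPKM in KO2, against 272 and 284 FPKM in WT. It fell 60.6-fold (-5.65 ± 0.07, adjusted p = 2.55e-07). PGAP3, which remodels the lipid part of GPI-anchored proteins, starts head to head with ERBB2. It was at 1.44 and 1.31 FPKM in KO1 and 1.33 and 1.10 FPKM in KO2, against 123 and 127 FPKM in WT, and fell 96.5-fold (-5.78 ± 0.06, adjusted p = 1.75e-07). No knockout value of these 3 genes came near WT. STARD3, a cholesterol-binding protein of late endosomes, was at 3.84 and 3.75 FPKM in KO1 and 3.73 and 3.98 FPKM in KO2, against 282 and 295 FPKM in WT (75.5-fold lower). Of the exon bases of MIEN1, 24.9% are shared with ERBB2, and of PGAP3 5.29%. No source used here states the strand setting of the counting, and reads in these shared bases cannot be told apart from those of ERBB2.

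Genes beside ERBB2 that are known mainly from other tissues were silent or nearly so in the knockout groups. TCAP, the titin cap of striated muscle, was at 0.586 and 0.207 FPKM in KO1 and 0.433 and 0.203 FPKM in KO2, against 29.3 and 28.9 FPKM in WT (81.5-fold lower). PPP1R1B, the phosphatase regulator DARPP-32 of dopamine-responsive neurons, had 2 reads over the 4 knockout libraries against 4841 reads over both WT libraries, where it stood at 26.8 and 26.3 FPKM. The ratio of reads per depth was 5102, with an exact 95% counting interval of 1412 to 42139. PNMT, the enzyme that makes adrenaline, had 3 knockout reads against 241 in WT (4.32 and 3.92 FPKM), a ratio of 169 (57.2 to 827). These 3 genes, which are among the 6 that passed the filter through WT alone, had a WT transcript level that the knockout libraries lacked almost wholly. On the telomeric side the next tested genes were GSDMB, a pore-forming gasdermin, and ORMDL3, a regulator of sphingolipid synthesis. GSDMB was at 0.457 and 0.402 FPKM in KO1 and 0.657 and 0.538 FPKM in KO2, against 9.18 and 8.65 FPKM in WT (17.4-fold lower). ORMDL3 was at 4.83 and 4.94 FPKM in KO1 and 5.19 and 4.85 FPKM in KO2, against 39.6 and 39.4 FPKM in WT (7.98-fold lower). GSDMB passed the filter through WT alone, so its knockout and WT values had to differ. In ORMDL3 all 4 knockout values lay below both WT values, as in 6419 of 16046 tested genes. The fall of ORMDL3 was shallower than that of GRB7. GSDMA, another gasdermin, had 0 reads in all 4 knockout libraries and stood at 1.47 and 1.92 FPKM in WT (152 reads), so it was at least 26.7-fold lower in the knockout groups against a floor of 3 reads per library. Its fitted change of -1.42 depends on the pseudocount and is no bound. GSDMA also passed the filter through WT alone.

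The start regions of these genes are shown because PGAP3 and ERBB2 share theirs in RefSeq. They also set the deepest falls beside a shallow one (TOP2A) and the one gene that rose (IGFBP4). The RefSeq promoter entries of PGAP3 and ERBB2 overlap by 136 bases on opposite strands. RefSeq entries (GRCh38.p14) were found for 29 of the 37 tested members, and each run below is the 250 bases before the start, 5′ to 3′ on the strand of the gene. Capitals mark 4 motifs found on either strand. One is the ETS-type motif, searched as CCGGAAG. The next is the box bound by the factor NF-Y, which was searched with the letters CCAAT. The GC box known from Sp1 sites was searched with the letters GGGCGG. The TATA box of core promoters was searched with the letters TATAAA. STARD3 is chr17:39636894-39637143 (+), PGAP3 is chr17:39688058-39688307 (-), MIEN1 is chr17:39730533-39730782 (-), TOP2A is chr17:40417897-40418146 (-) and IGFBP4 is chr17:40443200-40443449 (+).
STARD3: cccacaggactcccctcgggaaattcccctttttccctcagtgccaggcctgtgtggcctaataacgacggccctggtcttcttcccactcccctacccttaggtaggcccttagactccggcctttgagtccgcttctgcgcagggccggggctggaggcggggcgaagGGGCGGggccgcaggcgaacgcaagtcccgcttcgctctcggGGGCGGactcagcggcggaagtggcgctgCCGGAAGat
PGAP3: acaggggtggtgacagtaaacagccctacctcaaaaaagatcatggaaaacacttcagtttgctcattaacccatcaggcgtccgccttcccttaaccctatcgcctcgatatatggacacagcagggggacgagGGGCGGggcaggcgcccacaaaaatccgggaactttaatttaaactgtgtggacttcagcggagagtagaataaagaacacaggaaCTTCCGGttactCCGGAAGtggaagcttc
MIEN1: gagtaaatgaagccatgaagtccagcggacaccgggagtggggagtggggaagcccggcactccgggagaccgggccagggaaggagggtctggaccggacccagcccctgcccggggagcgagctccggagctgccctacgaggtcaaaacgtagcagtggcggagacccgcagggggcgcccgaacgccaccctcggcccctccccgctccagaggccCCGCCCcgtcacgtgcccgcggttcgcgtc
TOP2A: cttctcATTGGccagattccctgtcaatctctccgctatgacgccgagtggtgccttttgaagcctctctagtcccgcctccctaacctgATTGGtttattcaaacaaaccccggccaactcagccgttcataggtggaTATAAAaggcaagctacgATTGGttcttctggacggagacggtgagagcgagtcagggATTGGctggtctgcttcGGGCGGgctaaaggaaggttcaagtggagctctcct
IGFBP4: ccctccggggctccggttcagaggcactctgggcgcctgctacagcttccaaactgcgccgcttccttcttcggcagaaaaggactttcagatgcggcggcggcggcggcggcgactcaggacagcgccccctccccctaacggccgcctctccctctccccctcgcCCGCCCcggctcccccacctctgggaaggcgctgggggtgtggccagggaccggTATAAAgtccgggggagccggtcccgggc
The runs of MIEN1 and IGFBP4 hold 25 and 24 CpG pairs and that of PGAP3 holds 11. TOP2A carries 4 NF-Y boxes and 1 TATA box, and IGFBP4 has 1 TATA box. Across the 29 promoters, 20.7% hold the ETS-type motif, 41.4% an NF-Y box, 62.1% a GC box and 6.90% a TATA box. Across all 35116 entries of the table, non-coding genes included, these shares are 8.52%, 32.0%, 42.6% and 10.7%. A match is a run of letters and not evidence of binding.

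The median fall was deepest in the bin nearest to ERBB2, by an amount that depended on which members were counted. Among the 11 tested members whose far edge lay within 0.25 Mb, the median log2 fold change was -4.48, and 11 fell (40.1% of all tested genes were called lower). That median is the value of TCAP, and 5 of the 11 passed the filter through WT alone. It was -5.71 over the 6 others, -2.77 with no filter on low values, and -5.74 and -5.69 without WT replicate 1 and WT replicate 2. Without a knockout library it was -4.58 to -4.38. It was -2.38 for the 10 members between 0.25 and 0.5 Mb and -2.70 for the 16 between 0.5 and 1 Mb, which with no filter became -2.21 and -1.69. Over all tested members the median WT level did not follow that order. It was 39.5 FPKM nearest to ERBB2, then 53.7 FPKM and 64.6 FPKM, where the knockout medians over both groups were 1.29, 9.79 and 10.4 FPKM. Without the members that passed through WT alone, the nearest bin stood at 4.77 FPKM in the knockout groups, against 215 FPKM in WT. The WT medians were then 215, 53.7 and 75.8 FPKM, beside median changes of -5.71, -2.38 and -2.94. There the WT level did follow the order of the falls. Between 0.25 and 1 Mb the medians were lower on the centromeric side. The median there was -3.40 (3 genes, 0.25 to 0.5 Mb) and -3.09 (10 genes, 0.5 to 1 Mb), against -2.09 (7 genes) and -1.62 (6 genes) on the telomeric side. As a description, the log2 ratio of WT to knockout FPKM fell with the gap to ERBB2 over the 19 centromeric members (Pearson r = -0.71, Spearman rho = -0.81) and over the 18 telomeric ones (r = -0.68, rho = -0.62). GSDMA entered at its bound, and PPP1R1B and PNMT with 2 and 3 knockout reads. Without the members that passed through WT alone, r was -0.82 and rho -0.73 over 15 centromeric members, and r was -0.65 and rho -0.50 over 16 telomeric ones. These genes share libraries and neighbours, so no p is given. Against the WT level itself, r was -0.32 on the centromeric and 0.29 on the telomeric side.

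**Figure D2:**
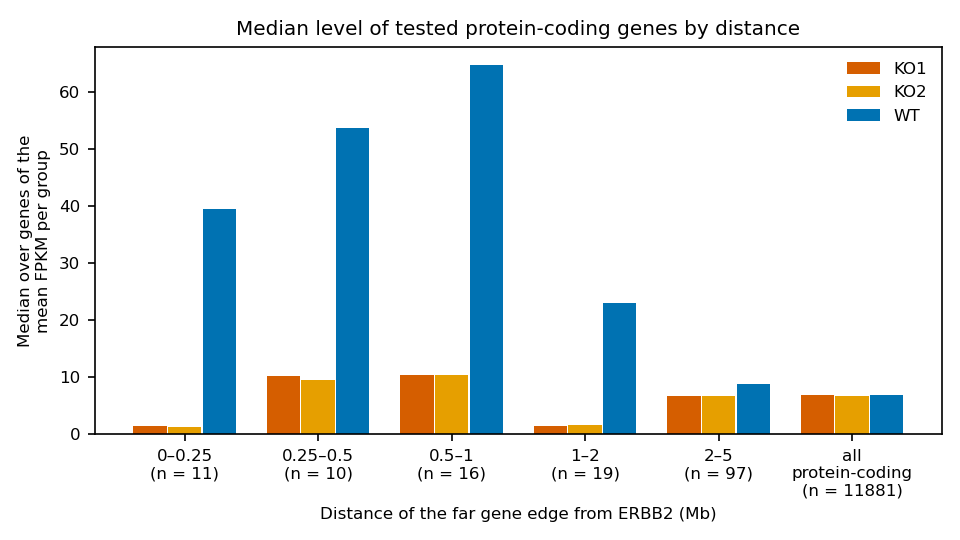
Median over tested protein-coding genes of the mean FPKM in KO1, KO2 and WT (bars, left to right), by distance of the far gene edge from ERBB2 in Mb, beside all protein-coding genes. The WT bars of the 3 nearest bins stand at 39.5, 53.7 and 64.6 FPKM, and the WT bar over all protein-coding genes at 6.91 FPKM. The bars include genes that passed the filter through WT alone, among the members and also in the bin of 1 to 2 Mb. Without such members the WT medians of the 3 nearest bins were 215, 53.7 and 75.8 FPKM.

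The fall did not stop at the edge of the window. Of 12 tested protein-coding genes with a far edge 1 to 2 Mb away on the telomeric side, 12 were called lower (median -2.87). Of 7 on the centromeric side, 5 were lower and 2 not called (median -1.27). Over all tested genes, 40.1% were called lower. On the telomeric side KRT20, KRT23, KRT13, KRT15, KRT19 and KRT14 passed the filter through WT alone and had to differ. Of the 12, 10 come from the keratin gene cluster and its antisense genes, among them KRT17 itself and the epithelial marker KRT19, which changed by -10.69. Between 2 and 5 Mb, 67 of 97 were lower and 20 higher, with a median of -0.39. On chromosome 17 outside the window, 304 of 696 were lower and 281 higher, with a median of -0.01. Levels in the 2 to 5 Mb bin were also close to the general ones, at a median of 6.63 FPKM in KO1 and 6.65 FPKM in KO2, against 8.81 FPKM in WT.

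**Figure D3:**
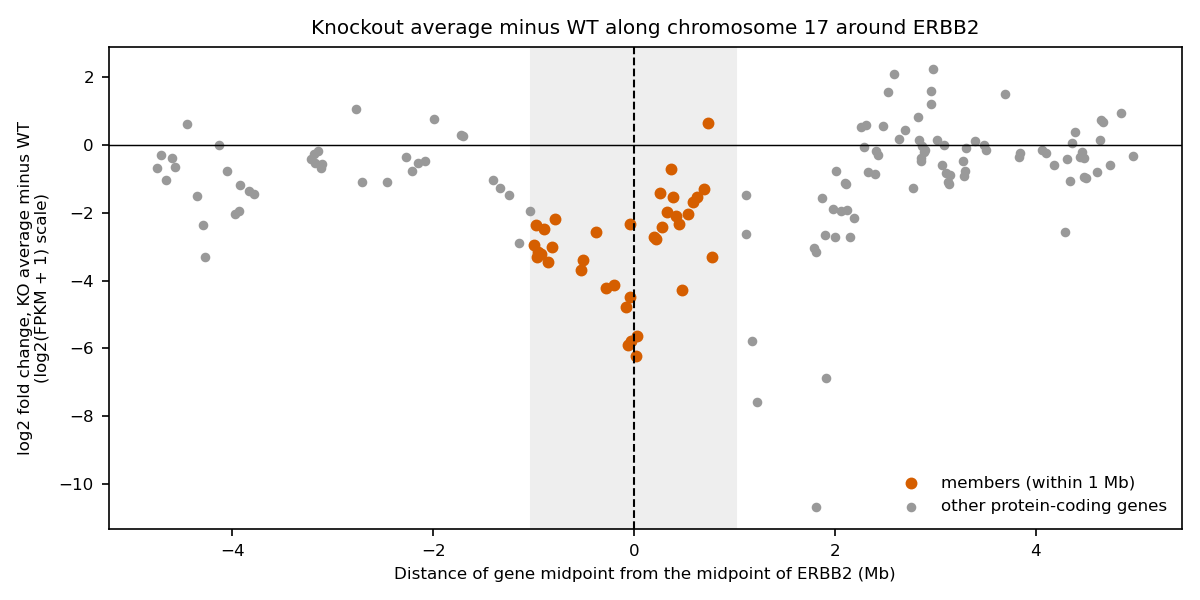
Log2 fold change of the knockout average minus WT on the log2(FPKM + 1) scale for tested protein-coding genes, by distance of the gene midpoint from that of ERBB2 in Mb; orange points are members, grey points other genes, and the shaded band is the window. The lowest grey point, at -10.69, is KRT19. Values reach -6.22 beside ERBB2 and lie between -3.30 and 0.66 among the outermost telomeric members.

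Among the members that act in protein synthesis and turnover, 7 of 8 were tested and 7 fell (median -2.56). For this and the other classes, 40.1% of all tested genes were called lower and 80.6% called either way. RPL19, a protein of the large ribosomal subunit, had the highest WT level of all members. It was at 347 and 360 FPKM in KO1 and 344 and 335 FPKM in KO2, against 3650 and 3682 FPKM in WT, which is 10.6-fold lower (-3.40 ± 0.03 log2, limma adjusted p = 1.10e-07). RPL23, of the same subunit, was at 62.8 and 61.6 FPKM in KO1 and 60.1 and 57.0 FPKM in KO2, against 675 and 658 FPKM in WT. Both ribosomal genes thus kept about 9% of their WT level, and both have processed copies elsewhere whose reads may be shared. PSMB3, a beta subunit of the proteasome core, was at 77.6 and 77.5 FPKM in KO1 and 71.7 and 74.0 FPKM in KO2, against 686 and 678 FPKM in WT (9.07-fold lower, adjusted p = 9.03e-08). PSMD3, a subunit of the proteasome lid on the telomeric side, fell 5.58-fold. CWC25, a splicing factor, and CASC3, of the exon junction complex, fell 6.44-fold and 5.40-fold, and FBXL20, a substrate receptor of ubiquitin ligases, fell 8.95-fold.

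Of 12 transcription and chromatin members, 9 were tested and 9 fell (median -2.09, against 40.1% called lower over all genes). MED1, the Mediator subunit that binds nuclear receptors, was at 10.5 and 10.3 FPKM in KO1 and 8.88 and 9.10 FPKM in KO2, against 195 and 205 FPKM in WT (-4.23 ± 0.03 log2, limma adjusted p = 9.93e-08). Its neighbour CDK12, a kinase of elongating RNA polymerase II, fell 19.7-fold, close to the 20.6-fold of MED1. PCGF2 and MLLT6, a Polycomb and a chromatin-binding protein near the centromeric edge, fell 11.2-fold and 8.31-fold, though 45.7% of the exon bases of PCGF2 are shared with other genes, mainly CISD3. Within this class the nuclear receptors moved least. THRA, the thyroid hormone receptor alpha, was at 10.4 and 10.2 FPKM in KO1 and 9.89 and 9.06 FPKM in KO2, against 16.4 and 16.8 FPKM in WT (1.68-fold lower, -0.70 ± 0.04, adjusted p = 4.17e-05). Tested against a fold of 1.5, its call was lost (adjusted p = 0.0537). NR1D1, the clock repressor REV-ERB alpha, which overlaps the end of THRA, was at 4.86 and 5.16 FPKM in KO1 and 3.50 and 3.79 FPKM in KO2, against 14.1 and 14.4 FPKM in WT. RARA, the retinoic acid receptor alpha, was at 4.87 and 5.50 FPKM in KO1 and 6.03 and 6.23 FPKM in KO2, against 18.3 and 18.4 FPKM in WT. In all 3 receptors every knockout value lay below both WT values, as in 6419 of 16046 tested genes. MED24, another Mediator subunit, was at 8.64 and 8.58 FPKM in KO1 and 9.43 and 9.93 FPKM in KO2, against 38.0 and 39.0 FPKM in WT (4.21-fold lower). MSL1, of the male-specific lethal complex, fell 4.58-fold.

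Signalling and receptor genes were the most varied class, with 7 of 13 tested, 6 lower and 1 higher (median -3.69, against 40.1% lower and 40.5% higher over all genes). PPP1R1B and PNMT of this class passed through WT alone. CACNB1, a calcium channel beta subunit, was at 2.14 and 1.84 FPKM in KO1 and 1.37 and 1.43 FPKM in KO2, against 32.7 and 34.6 FPKM in WT (19.9-fold lower). PIP4K2B, a phosphoinositide kinase, fell 9.99-fold. RAPGEFL1, which resembles Rap exchange factors, was at 2.75 and 2.95 FPKM in KO1 and 3.82 and 4.06 FPKM in KO2, against 79.7 and 86.3 FPKM in WT. Its 24.5-fold fall stood out from its neighbours CASC3 and WIPF2, which fell 5.40-fold and 4.53-fold. IGFBP4, a secreted binder of insulin-like growth factors, went the other way. It was at 55.4 and 56.4 FPKM in KO1 and 42.5 and 40.4 FPKM in KO2, against 28.97 and 31.2 FPKM in WT (1.62-fold higher, 0.66 ± 0.04 log2, limma adjusted p = 4.24e-05). All 4 knockout values lay above both WT values, as in 6396 of 16046 tested genes. The call of IGFBP4 was lost when tested against a fold of 1.5 (limma adjusted p = 0.128). Both of its tested neighbours fell, TOP2A 2.50-fold and TNS4 11.8-fold.

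All 7 tested genes of the membrane and lipid class fell, STARD3, PGAP3, MIEN1, ORMDL3, GSDMA, GSDMB and CISD3 (of 8 listed, median -2.77), GSDMA and GSDMB having passed through WT alone. All 4 tested cytoskeleton and adhesion genes fell as well (of 6 listed, median -3.16), TCAP having passed through WT alone, where 40.1% of all genes were called lower. LASP1, an actin-binding LIM protein, was 8.32-fold lower, WIPF2, a partner of WASP proteins, 4.53-fold, and TNS4, a focal adhesion protein of epithelia, 11.8-fold. TNS4 is the last tested member on the telomeric side, and its fall was deeper than the values of the 4 tested genes before it. The small gene LASP1NB beside LASP1, at 4.40 and 4.31 FPKM in WT, was at most 0.276 FPKM in any knockout library (22.7-fold lower). Both replication genes were lower. TOP2A, the topoisomerase of mitotic chromosomes, was at 40.2 and 39.5 FPKM in KO1 and 46.2 and 48.1 FPKM in KO2, against 112 and 106 FPKM in WT (-1.31 ± 0.03 log2, limma adjusted p = 2.14e-06). CDC6, which loads the replicative helicase at origins, was at 15.5 and 14.8 FPKM in KO1 and 16.4 and 16.9 FPKM in KO2, against 53.8 and 53.0 FPKM in WT (3.36-fold lower). TOP2A kept 40.0% of its WT level, and only THRA and IGFBP4 of the tested members kept more.

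Partners of these genes that are encoded elsewhere moved in both directions, and the medians of 9 partner lists lay between -0.26 and 0.17. Of 30 tested Mediator genes outside the window, 16 fell and 11 rose in the knockout average (median -0.20), from MED13L at -1.90 and CCNC at -0.88 to MED31 at 0.79 and MED14 at 0.90. Of 30 proteasome genes, 14 fell and 10 rose (median -0.09), from PSMD2 at -1.57 and PSMD14 at -1.23 to PSMD4 at 0.94 and PSMA1 at 1.17. Of 44 large-subunit ribosomal protein genes, 26 fell and 10 rose (median -0.26), from RPL7 at -1.61 and RPL30 at -1.45 to RPL14 at 1.21 and RPL37 at 1.26. Ribosomal protein genes have many processed copies, so these values are uncertain. On the log2(FPKM + 1) scale MED1, MED24, PSMB3, PSMD3, RPL19 and RPL23 were each lower than every listed gene outside the window, MED24 at -1.96 only just. By the ratio of mean FPKM, MED13L fell further than MED24, 16.4-fold against 4.21-fold. MED13L passed the filter through WT alone and had to differ.

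Genes of transcription kinases and their partner proteins, without CDK12, were 4 lower and 4 not called of 8 (median -0.17). They ran from CCNH at -0.59 and MNAT1 at -0.53 to values of 0.07 each for CCNK and CDK9, both not called. BAF complex genes were 6 lower and 10 higher of 17 (median 0.17), from ACTL6A at -1.66 and SMARCB1 at -1.09 to SMARCA2 at 1.57 and SMARCD3 at 1.72. Polycomb repressive complex 1 genes were 5 lower and 4 higher of 15 (median 0.00), with CBX6 at -2.16, BMI1 at -1.42 and RING1 at 1.41 among them. Nuclear receptors and their cofactors were 6 lower and 6 higher of 12 (median -0.05). RARB at -2.44 (47.1-fold lower) was lower there than all 3 receptors of the window, RARG was at -1.48, and NR1D2 was at 1.29. RARB passed the filter through WT alone and had to differ. Origin and topoisomerase genes were 7 lower and 8 higher of 18 (median 0.10), from ORC4 at -0.92 and CDC45 at -0.76 to CDT1 at 1.13 and GMNN at 1.58. Among HER2 signalling partners 17 of 29 fell and 8 rose (median -0.23). They ran from PIK3R1 at -2.58 and GRB14 at -1.92 to PLCG1 at 0.93 and GRB10 at 1.34, against -5.65 for GRB7. The mean FPKM of PIK3R1 was 144-fold lower, a deeper ratio than for GRB7, but it rests on knockout values of at most 0.0597 FPKM. PIK3R1 and GRB14 passed the filter through WT alone and had to differ. No list was tested as a list, and the share of all genes called lower was 40.1%.

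**Figure D4:**
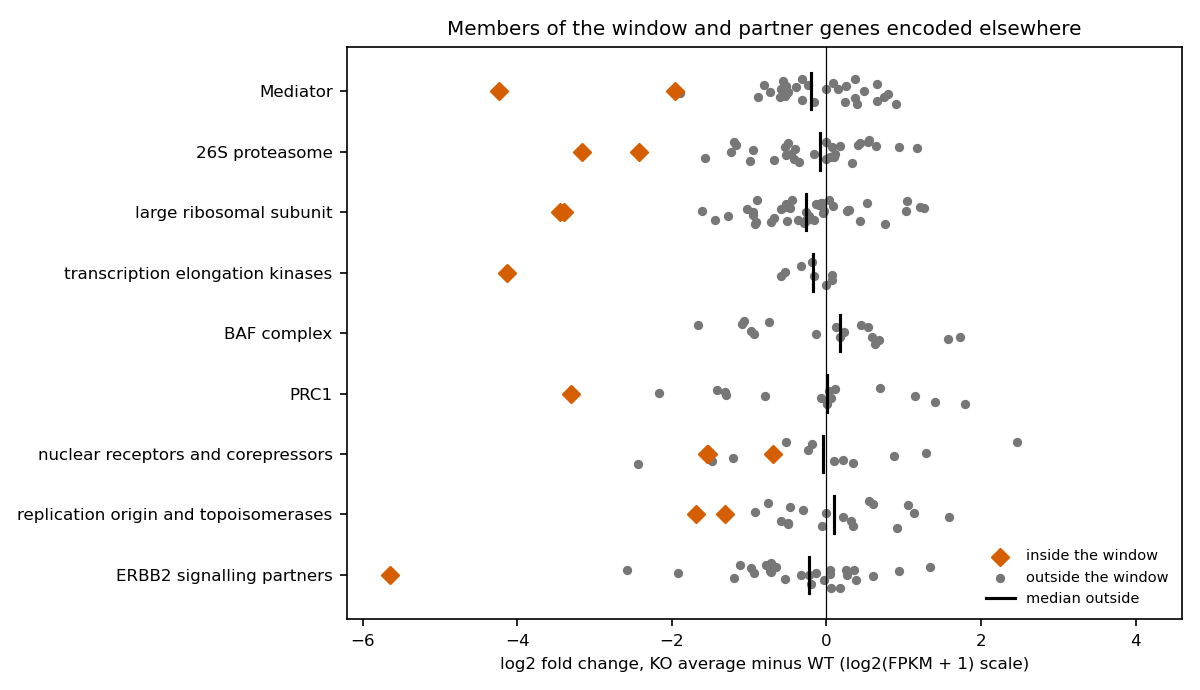
Log2 fold change of the knockout average minus WT on the log2(FPKM + 1) scale for 9 lists of complexes and pathways; diamonds are genes inside the window, grey points genes outside it, and black bars the median outside. The bars lie between -0.26 and 0.17, and the diamonds between -5.65 and -0.70.

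KO1 and KO2 were close to each other over most of the region. In KO2 against KO1, 4 members were called lower, 4 higher and 29 not called, a total of 8 of 37, where 26.2% of all tested genes were called (15% lower and 11.2% higher). Both knockout groups are compared with the same WT libraries above, so their matching falls are not separate evidence. IGFBP4 was lower in KO2 than in KO1 (-0.42 ± 0.05 log2, limma adjusted p = 0.00364), and so were NR1D1 (-0.37 ± 0.05, 0.00771), CACNB1 (-0.31 ± 0.07, 0.0258) and MED1 (-0.19 ± 0.04, 0.0181). RAPGEFL1 (0.36 ± 0.06, adjusted p = 0.0106), TOP2A (0.24 ± 0.04, 0.0113), MED24 (0.15 ± 0.04, 0.0363) and CDC6 (0.13 ± 0.03, 0.0474) were higher in KO2. In each of these 8 genes the 2 KO2 values did not overlap the 2 KO1 values. The 8 were picked by their call in the same libraries, so this is no further support. No share over all tested genes is given for it. IGFBP4 alone of the 8 kept its call whichever library was left out. The call of NR1D1 was lost without KO1 replicate 2 (adjusted p = 0.0504). That of RAPGEFL1 was lost without KO1 replicate 1 (0.0629) or KO2 replicate 2 (0.0521). The call of TOP2A was lost without KO1 replicate 1 (0.0592), KO1 replicate 2 (0.0721) or KO2 replicate 2 (0.0515), and that of CACNB1 without KO1 replicate 1 (0.0956), KO2 replicate 1 (0.0963) or KO2 replicate 2 (0.0763). MED1 lost its call without any one of the 4 knockout libraries (0.0544 to 0.0999), MED24 without any one library other than KO2 replicate 1 (0.0554 to 0.150), and CDC6 without any one of the 6 (0.0742 to 0.197). Genes flanking ERBB2 showed no called difference in the main fit, GRB7 being the nearest to one (-0.24 ± 0.08, adjusted p = 0.0833). With the filter at 5 FPKM, GRB7 was called lower in KO2. Leaving out a KO2 library gave a call to GRB7 or to MIEN1, so this lack of calls was not stable either.

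**Figure D5:**
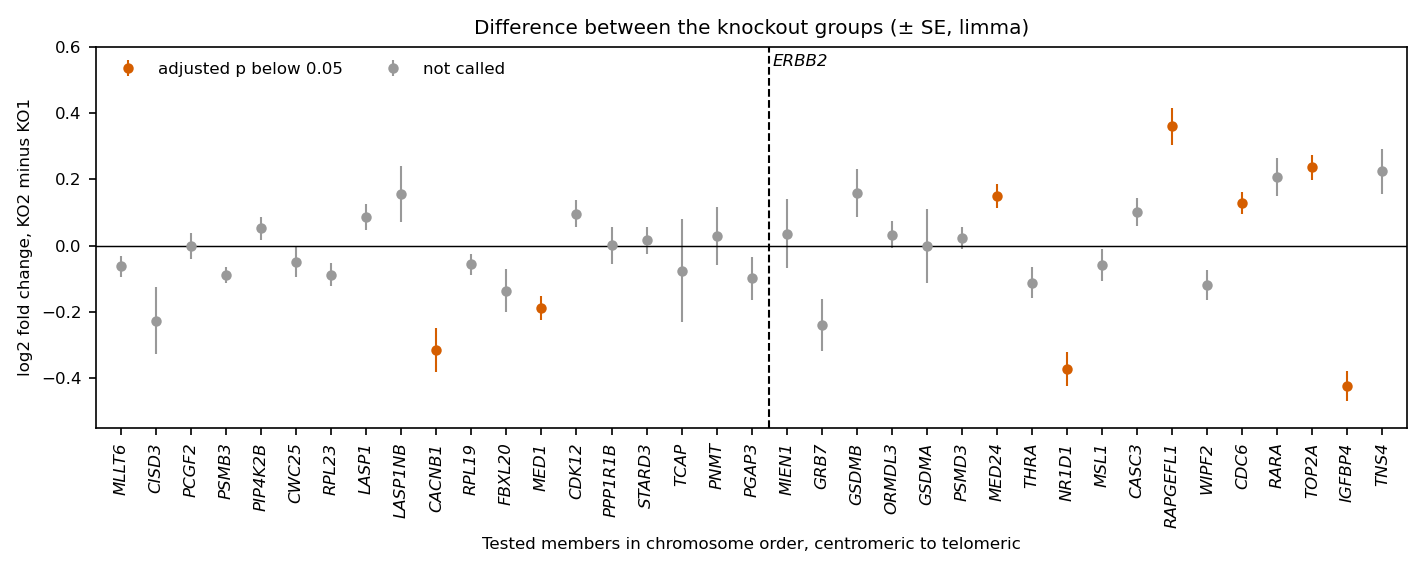
Log2 fold change of KO2 minus KO1 with its standard error from limma for the 37 tested members in chromosome order; orange points have an adjusted p below 0.05, and the dashed line marks ERBB2. The 8 called values lie between -0.42 and 0.36, within a range far narrower than the differences from WT.

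Non-coding genes of the same window were mostly lower as well. Of 54 such genes, 18 were tested, and 15 fell, 0 rose and 3 were not called in the knockout average (median -1.76, limma, with 40.1% of all genes called lower). Of these 15, 8 were under 1 FPKM in all knockout libraries, passed the filter through WT alone and had to differ, AC009283.1, MIR4728 and RARA-AS1 among them. Several overlap members, so they are not separate from them. An antisense gene that overlaps MED1 and FBXL20 (ENSG00000266469) was at 14.0 and 11.1 FPKM in KO1 and 10.8 and 10.9 FPKM in KO2, against 207 and 207 FPKM in WT. The lincRNA AC009283.1, between CDK12 and NEUROD2, was at 0.864 and 0.614 FPKM in KO1 and 0.633 and 0.418 FPKM in KO2, against 28.2 and 24.4 FPKM in WT. RARA-AS1, antisense to RARA, was at 0.335 and 0.565 FPKM in KO1 and 0.484 and 0.301 FPKM in KO2, against 3.73 and 5.14 FPKM in WT. In all 3 the knockout values lay at a small share of WT.

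The hairpin MIR4728 lies inside ERBB2 (39726495 to 39726561). It had 0 reads in the 4 knockout libraries and 89 over both WT libraries (38.7 and 26.8 FPKM), so it was at least 15.3-fold lower in the knockout groups against the floor of 3 reads per library. Such reads come from longer RNA and do not measure the mature miRNA. Its mature arms (RefSeq, GRCh38.p14), shown with the seed (bases 2 to 8) in capitals because this is the one miRNA hairpin of the window encoded within ERBB2 itself, have different seeds.
hsa-miR-4728-5p: uGGGAGGGgagaggcagcaagca
hsa-miR-4728-3p: cAUGCUGAccucccuccugccccag

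The other 16 members did not pass the filter, and no value of theirs exceeded 1.17 FPKM. In 13 the WT mean was above the knockout mean, in 2 (FBXO47 and KRT24) it was below, and 1 had 0 reads in all libraries. The transcription factors of neurons and lymphocytes in the window were barely detected. NEUROD2 had 0 knockout reads and 18 WT reads, and IKZF3 had 2 and 97. ZPBP2, a sperm protein gene, had 0 and 18. Reads of C17orf98, STAC2, LRRC3C and KRT222 numbered 0 to 4 over the knockout libraries and 2 to 4 over WT. PLXDC1, CSF3, GJD3 and CCR7 were at most 0.461 FPKM in any knockout library and at most 1.17 FPKM in any WT library. SMARCE1, a core BAF subunit of most cells, was at 0.257 and 0.351 FPKM in KO1 and 0.300 and 0.314 FPKM in KO2, against 0.920 and 0.930 FPKM in WT. Of its exon bases, 19.8% are shared with an overlapping gene (ENSG00000264058) that had 0 reads in every library. No source used here says how reads in shared exons were assigned, which leaves the level of SMARCE1 uncertain.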

How the data were processed

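Total RNA of 6 NCI-N87 libraries was analysed from FPKM values that the authors deposited for 58735 Ensembl gene IDs per library. The submitters' processing notes name the build hg38 and the tools HISAT2 (2.0.5) and featureCounts (1.5.0-p3), without strand or multimapping settings. All 58735 IDs matched GENCODE release 29. Multiplied by union exon length, 100% of values fell within 0.1 of a whole number of reads, which gave read numbers back.

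The 16046 genes that reached 1 FPKM in 2 libraries or more entered a limma fit (version 3.58.1, R 4.3.3) of log2(FPKM + 1) on group with a trended prior and no covariate; this scale understates changes of low genes. P-values were adjusted by Benjamini-Hochberg over all tested genes and called below 0.05. Folds named without log2 are ratios of mean FPKM. On simulated reads for the comparison of the knockout average with WT (14254 genes), 100 of 100 genes changed 4-fold and 34 of 100 changed 1.5-fold were recovered.

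The members, partner lists and named genes were chosen with earlier results of these data known. Values per library are given for 5 marker genes, the 4 tested members nearest ERBB2 on each side, the 6 lowest and 6 highest fold changes, any member higher or not called in the knockout average, the 4 lowest and 4 highest called in KO2 against KO1, and the 3 highest WT levels; further members were named after their values were seen, and a few genes are not reported here by name. Alternatives covered the pseudocount, filter, scaling, voom, a fold of 1.5, 1 knockout group, the replicate number, each library left out and the window width.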

Additional observations from a re-analysis of the deposited data

Results flagged for a closer look

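The effect of knockout on 8 of 37 tested members differed between the 2 knockout groups by the direct limma comparison of KO2 with KO1. In the same comparison 26.2% of all tested genes were called, so calls were not more frequent among the members. Tested against a fold of 1.5, 0 members were called. On the log2 scale KO2 minus KO1 was -0.423 for IGFBP4, -0.372 for NR1D1, -0.314 for CACNB1 and -0.188 for MED1. It was 0.360 for RAPGEFL1, 0.237 for TOP2A, 0.151 for MED24 and 0.130 for CDC6. All but IGFBP4 lost the call when some single library was left out, as given above. IGFBP4 is also the member that rose, by 0.87 log2 in KO1 and 0.45 log2 in KO2 against WT. Groups of 2 libraries are too small to look for single libraries that stand apart within a group.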

How the results depend on the processing

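Of 333 values of the 23 named members in the knockout average, recomputed under 15 alternatives, 331 kept direction and call and 0 reversed; THRA and IGFBP4 lost theirs against a fold of 1.5. Members called lower numbered 21 with a window of 0.5 Mb in the average, KO1 and KO2, where 0 were higher. With a fold of 1.5, 0 were higher in the average and in KO2. Of 112 values for KO2 minus KO1, 74 kept the call. There 0 members were called either way with a fold of 1.5, 2 lower and 2 higher with 0.5 Mb, 7 lower with 2 Mb, 2 higher with no filter, and 7 and 8 higher with quantile normalization and voom. Among members with at most 5% shared exon bases (chosen after seeing the data), 2 were lower. Leaving out a library gave 2 to 4 lower and 0 to 3 higher. The cause was not tested.

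The member median of -2.77 became -3.31 with a pseudocount of 0.1, -3.31 with voom, -2.25 with no filter, -2.98 with 5 FPKM, -2.63 with library totals, -2.94 without the members that passed through WT alone (chosen after seeing the data) and -2.68 with 2 Mb, and -2.97 to -2.75 with a library left out; without either WT library 31 members were tested and 30 were lower. Of 48 medians by distance, 22 moved by less than the spread. Library totals alone shifted the median of all genes by 0.12 log2. Over all genes KO2 against KO1 gave 2403 lower and 1800 higher, against 986 and 850 without KO1 replicate 1, 1092 and 840 without KO1 replicate 2, 1688 and 1069 without KO2 replicate 1, 1523 and 1024 without KO2 replicate 2, and 88 and 41 with a fold of 1.5. The fold of 1.5 gave 3201 lower and 3068 higher in the average, against 6442 and 6498. Replicate numbers did not pair the libraries (correlation of deviations -0.04 to 0.02); with the replicate block 36 members were lower and 1 higher in the average, and 3 lower and 3 higher in KO2 against KO1. Depth limits the members with few reads.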
